A study of Mus musculus with 12 samples.

Results

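Liver tumors of Setd2 knockout (KO) mice were compared with normal liver of KO mice, across all genes expressed in the series. The comparison holds 6 of the 12 libraries of the study, 3 from KO tumors and 3 from KO normal liver, taken by their titles. The other 6 libraries, 3 from tumors and 3 from normal liver of wild-type (WT) mice, were used to ask where the tumor changes of KO mice differed from those of WT mice. KO tumors and WT tumors came from male mice injected intraperitoneally with 1 dose of 25 mg/kg diethylnitrosamine (DEN) at 2 weeks of age and kept for 8 months. The labels also give 8 months as their age. KO livers and WT livers came from male mice aged 8 months that had received no DEN. Exposure to the carcinogen and tumor state therefore cannot be told apart in these data, and no library analysed here holds the liver around a tumor. The titles call the knockout cKO, which is usually read as conditional, but the Cre line, the exons removed and the cells that lost the gene are not named in the labels. The labels do not say whether a library came from its own mouse or whether tumors were pooled, so the p-values measure the spread between these libraries alone, which may be technical.

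Setd2 makes the enzyme that adds the third methyl group to histone H3 at lysine 36, along genes that are being transcribed. DEN is turned by cytochrome P450 enzymes of hepatocytes into a reactive form that alkylates DNA, and a dose given to young male mice leads to hepatocellular tumors months later. Hepatocytes carry out most functions of the liver, among them the making of plasma proteins, bile acids, cholesterol and urea and the breakdown of drugs, and these functions are divided between the portal and the central end of the lobule. Tumors of hepatocytes often lose part of this program and take up fetal genes, while stroma and immune cells of the host enter them. The libraries were made from pieces of tissue, in which fewer cells of a type and less RNA per cell cannot be told apart.

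Expression was given as FPKM (fragments per kilobase of exon, relative to all fragments mapped), and an entry was tested where its FPKM reached 1 in at least 3 of the 12 libraries. This left 11671 of 24553 entries, called genes here. FPKM summed to 423498, 513610 and 626303 in KO tumors 1, 2 and 3, against 719538, 653473 and 713806 in KO livers 1, 2 and 3. The sums were lower in every KO tumor than in any KO liver. Sequencing depth is unknown, so no counting error can be given. Pearson's r across genes was 0.924 to 0.942 between KO tumors and 0.977 to 0.979 between KO livers, and the median SD was 0.31 and 0.17 on the log2 scale. In a principal component analysis of the 6 KO libraries the first component held 63.3% of the variance. KO tumors 1 and 2 scored 57.9 and 60.4 on it and the KO livers −40.3, −42.6 and −44.7, while KO tumor 3 lay between them at 9.3. For some abundant genes the listed values are of no use. Alb, the albumin gene, is listed at 0 in KO tumors 1 and 3 and in all KO livers. The defining hepatocyte markers Ttr, Serpina1a, Apoa1, Hnf4a and Cyp2e1 were present in all 6 KO libraries, the lowest value being 66.6 FPKM for Cyp2e1 in KO tumor 2. Values of replicates 1, 2 and 3 are given in that order throughout, and changes are differences of log2(FPKM + 1), tumor minus normal liver, ± SE from limma.

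Setd2 (chromosome 9, 110532597 to 110618633, GRCm38) had an FPKM of 3.14, 2.18 and 1.90 in KO tumors, against 1.66, 1.93 and 1.32 in KO livers. The groups overlapped, and the change of 0.36 ± 0.19 missed the threshold (adjusted p = 0.235). In WT mice Setd2 was at 4.40, 3.61 and 4.07 in tumors and 4.84, 3.84 and 4.70 in normal liver, so every KO library lay below every WT library. An FPKM over the whole gene also counts reads outside the deleted part and from cells that kept the gene.

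Between KO tumors and KO livers 1664 genes were called at an adjusted p below 0.05, which is 14.3% of those tested. Of these, 1061 (9.09%) rose and 603 (5.17%) fell, and 764 rises and 366 falls were of at least 2-fold. The median change of all tested genes was −0.02. For each called gene the 3 KO tumors lay wholly above or wholly below the 3 KO livers. A call with 3 libraries per group largely implies this, so it adds no support, and the share of all tested genes that separate is not given. KO tumor 3 was the tumor nearest to the livers for 741 of the rises (69.8%) and 452 of the falls (75%). The count of calls depended on single libraries: it was 2981 without KO tumor 3, 1045 without KO tumor 2 and 530 without KO tumor 1, and 307, 138 and 129 without KO liver 1, 2 and 3. When each library was rescaled to a common sum (TPM), 1791 genes rose and 281 fell, a share of rises of 86.4% in place of 63.8%, and the median of all genes was 0.36. Changes of gene lists below should be read against these medians and their counts against the shares of all tested genes, 9.09% for rises and 5.17% for falls. Many lists share members, such as Lcn2, Spp1, Cd14 and Sox9, which count in each.

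In WT mice the same comparison called 1981 genes (17%), with 935 (8.01%) higher and 1046 (8.96%) lower in WT tumors. The KO and WT comparisons share no library. Of the calls in KO mice 505 were also called in WT mice, which is 30.3% of the KO calls and 25.5% of the WT calls, and 492 of the 505 had the same direction. The difference between the tumor changes of KO and WT mice was tested as an interaction over all 12 libraries. It called 243 genes (2.08%), of which 134 (1.15%) had the higher change in KO mice and 109 (0.934%) the lower. Of the 1664 genes called in KO mice 159 were among them, and for 155 of these the difference had the sign of the KO change. The KO change is part of the difference, so a shared sign was largely set in advance and adds no support.

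Among entries with an unshared gene name, the named genes that rose most in KO tumors code for several kinds of protein. They were secreted and membrane proteins, enzymes of steroid and carbonyl metabolism and proteins of immune defense. Ubd (chromosome 17, 37193892 to 37196095), which encodes the ubiquitin-like modifier FAT10, had 154, 203 and 38.1 FPKM in KO tumors, against 1.48, 1.93 and 1.27 in KO livers. KO tumor 3 was the lowest tumor and still lay far above the livers, and the change was 5.40 ± 0.57 (adjusted p = 0.00698). Lcn2 (chromosome 2, 32384633 to 32388252), whose product lipocalin 2 binds bacterial siderophores, stood at 2373, 3824 and 1377 in KO tumors and 133, 56.2 and 23.6 in KO livers. The tumors were higher in all 3 cases although the livers spread widely, with KO liver 1 on top, and the change was 5.34 ± 0.65 (adjusted p = 0.00807). Spink1, a secreted inhibitor of trypsin-like proteases, was at 224, 89.6 and 144 in KO tumors and 1.97, 4.88 and 1.67 in KO livers (change 5.32 ± 0.41, adjusted p = 0.00364). The tumors differed less from each other on this gene than on Ubd. The cytochrome P450 gene Cyp2a4, a steroid 15-alpha-hydroxylase that is higher in female than in male mouse liver, was at 1538, 368 and 2031 in KO tumors and 42.3, 20.1 and 22.9 in KO livers (change 5.23 ± 0.64). It shares much of its sequence with its neighbor Cyp2a5, so reads could be split between the pair.

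Akr1c18, an aldo-keto reductase that breaks down progesterone, had 187, 11.3 and 102 FPKM in KO tumors, against 1.52, 0.977 and 0.646 in KO livers (change 4.94 ± 0.91, adjusted p = 0.0193). KO tumor 2 was much the lowest tumor here. Cbr3, a carbonyl reductase, was at 78.0, 86.4 and 23.5 in KO tumors and 3.02, 3.03 and 1.69 in KO livers (change 3.98 ± 0.48). Cpe, carboxypeptidase E, which trims peptide hormones, reached 89.1, 45.2 and 49.0 FPKM in KO tumors, against 0.716, 2.70 and 0.990 in KO livers, and its change of 4.67 ± 0.37 passed with an adjusted p of 0.00364. Apela, the gene of a peptide that activates the apelin receptor, was at 39.7, 37.3 and 4.67 in KO tumors, with KO tumor 3 the lowest, and at 0.161, 0.245 and 0.0859 in KO livers (change 4.15 ± 0.71). Cybb, the catalytic subunit of the phagocyte NADPH oxidase, was at 84.5, 82.0 and 24.2 in KO tumors and 3.17, 2.92 and 2.66 in KO livers (change 3.85 ± 0.46). KO tumor 3 was the lowest tumor for Cybb, Apela and Cbr3. Ly6d, a GPI-anchored surface protein gene, and D17H6S56E-5 were among the largest rises too, with changes of 4.84 ± 0.63 and 5.13 ± 0.55. Of these 11 genes, 8 were called in each of the 6 fits that left out a library. The exceptions were Akr1c18, Apela and Ly6d, and all 11 kept their direction. Several of these rises were shared with WT mice. The WT change was 6.66 for Cyp2a4, 6.13 for Akr1c18, 5.82 for Spink1, 3.41 for D17H6S56E-5, 3.36 for Cpe and 3.18 for Cbr3, each called. It was 1.81 for Ubd, 1.59 for Ly6d, 1.22 for Apela, 0.43 for Cybb and −0.35 for Lcn2, without a call. Among the 11 genes only Cybb had a called difference between KO and WT mice.

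The named genes that fell most, chosen in the same way, serve male-typical and metabolic functions of hepatocytes. Hsd3b5 (chromosome 3, 98618634 to 98630252), a male-specific steroid reductase of mouse liver, had 0.608, 0.324 and 7.42 FPKM in KO tumors, against 114, 76.6 and 139 in KO livers. KO tumor 3 kept the highest value of the tumors and still lay about an order of magnitude below the lowest liver (change −5.37 ± 0.67, adjusted p = 0.00847). Elovl3 (chromosome 19, 46131897 to 46135694), an elongase of very long fatty acids, was at 0.684, 3.44 and 9.09 in KO tumors and 134, 506 and 303 in KO livers (change −6.02 ± 0.71, adjusted p = 0.00797). Sdr9c7 (chromosome 10, 127898518 to 127911761), a short-chain dehydrogenase, stood at 1.20, 1.47 and 2.85 in KO tumors, which were close to each other, and 24.0, 30.6 and 26.2 in KO livers (change −3.33 ± 0.24, adjusted p = 0.00364). Pon1, the serum paraoxonase carried on high-density lipoprotein, was at 11.9, 9.16 and 175 in KO tumors and 384, 616 and 570.4 in KO livers (change −4.17 ± 1.01, adjusted p = 0.0379). The same shape, with KO tumor 3 between the other tumors and the livers, was seen for Slco1a1, an uptake transporter of organic anions (1.27, 0.417 and 15.3 in KO tumors and 90.3, 42.0 and 65.7 in KO livers, change −4.10 ± 0.85). It was also seen for Rgn, regucalcin, which acts in the pathway to vitamin C, at 30.0, 14.6 and 314 in KO tumors and 715, 707 and 695 in KO livers (change −3.72 ± 0.99), and for the sulfotransferase gene Sult2a8 (change −4 ± 0.90).

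The remaining 5 of the 12 falls named were entries of major urinary proteins, pheromone carriers that male mouse liver secretes in bulk. Mup1 had 5.37, 2.93 and 152 FPKM in KO tumors, against 2937, 2390.2 and 2022 in KO livers, and Mup3 had 358, 294 and 2647 FPKM in KO tumors, against 8512, 7917 and 8985 in KO livers. KO tumor 3 was again the highest tumor, and no tumor reached a liver. The changes were −7.28 ± 1.25 for Mup1, −6.06 ± 0.91 for Mup8, −4.90 ± 0.96 for Mup16, −3.69 ± 0.80 for Mup3 and −3.50 ± 0.63 for Mup21. Many genes of this family, though not all, are near-identical copies, and the way reads were shared out among such entries is uncertain. Elovl3 and Sdr9c7 alone among the 12 falls were called in each of the 6 fits that left out a library. All 12 kept their direction. WT falls were called for Mup1 (−3.54), Mup3 (−1.58), Mup21 (−1.64), Slco1a1 (−1.66), Sult2a8 (−1.6), Pon1 (−1.35) and Rgn (−1.3). The WT changes of Mup8 (−1.17), Mup16 (−2.09), Elovl3 (−0.61), Hsd3b5 (−0.84) and Sdr9c7 (−0.18) were not called. The difference between KO and WT mice was called for Hsd3b5 and Sdr9c7 alone among the 12.

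**Figure D1:**
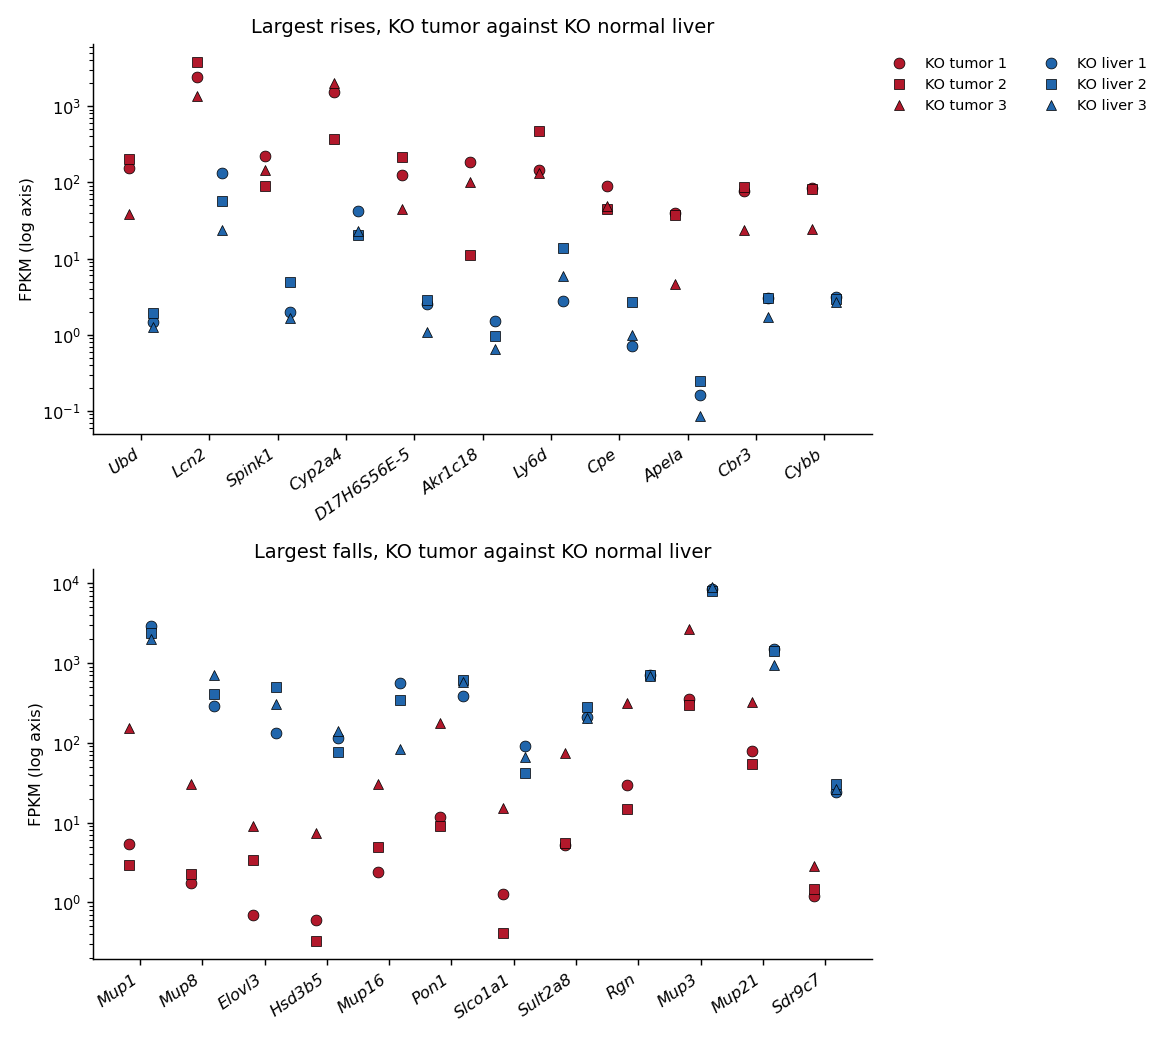
FPKM on a log axis of 11 genes named for the largest rise (upper panel) and 12 named for the largest fall (lower panel). The 3 KO tumors are in red left of the 3 KO livers in blue, with 1 symbol per replicate number. Tumors and livers do not overlap for any gene, which was a condition of the choice, and KO tumor 3 (triangles) is the highest tumor for each of the 12 falls, as for Mup1 at 152 FPKM.

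Most markers of fetal liver and liver tumors rose. Of 39 tested members 24 rose, 0 fell and all 39 had a positive change, with a median of 2.13, while 9.09% of all genes rose. The count ran from 10 (without KO liver 3) to 28 (without KO tumor 2) when a library was left out. The mean of the list, as log2(FPKM + 1) minus that of the KO livers, was 2.53, 2.55 and 2.07 in KO tumors 1, 2 and 3, with KO tumor 3 the lowest. Besides Spink1, Bex1, an X-linked adaptor gene of the nervous system, was at 20.7, 8.71 and 13.8 in KO tumors and 0.776, 0.470 and 0.439 in KO livers (change 3.23 ± 0.29). Gsta1, a glutathione S-transferase gene, was at 54.1, 109 and 42.9 in KO tumors and 3.08, 3.01 and 5.15 in KO livers (change 3.79 ± 0.36). Akr1b7, an aldose reductase-like enzyme gene, was at 7.82, 3.81 and 6.14 in KO tumors and 0.554, 0.396 and 0.242 in KO livers (change 2.27 ± 0.25). In WT mice 19 members rose and 0 fell, with a median of 1.59, and 2 members had a called difference that was higher in KO mice.

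Common liver cancer markers split the KO tumors. Afp, the fetal serum protein alpha-fetoprotein, was at 191, 6.29 and 137 in KO tumors and 42.2, 22.2 and 20.1 in KO livers. KO tumors 1 and 3 were above every KO liver and KO tumor 2 below every KO liver, and the change of 1.06 ± 1.15 did not pass (adjusted p = 0.551). WT tumors were at 472, 118 and 82.3 and WT livers at 1.70, 2.59 and 1.55 (change 5.85 ± 0.59, adjusted p = 0.00307). Every KO liver lay above every WT liver, a contrast that was not tested. The difference between genotypes was not called (adjusted p = 0.096). Gpc3, the surface proteoglycan glypican-3, was at 109.7, 1.86 and 83.0 in KO tumors and 1.35, 1.71 and 0.809 in KO livers (change 3.72 ± 1.28, adjusted p = 0.0902). KO tumor 2 was again the low tumor and lay near the livers. The imprinted long noncoding RNA gene H19 took the other order, at 193, 5876 and 128 in KO tumors and 19.6, 12.9 and 15.1 in KO livers, and its change of 4.99 ± 1.32 passed (adjusted p = 0.0476). Spp1, the gene of the secreted phosphoprotein osteopontin, was also highest in KO tumor 2, at 554, 3505 and 254 in KO tumors and 66.5, 66.7 and 64.3 in KO livers (change 3.57 ± 0.86, adjusted p = 0.037). WT tumors differed widely among themselves too, at 164, 53.2 and 0.541 for Gpc3 and 796, 23.0 and 48.1 for H19. Among 12 tested imprinted growth genes 3 rose and 0 fell, with a median of 0.90 and a list mean of 1.09, 2.22 and 0.58 in the 3 tumors (in fits that left out a library, 0 (without KO tumor 1 or KO liver 1, 2 or 3) to 4 (without KO tumor 3) rose). The other rises were Phlda2, which restrains placental growth, at 5.34, 10.1 and 1.75 in KO tumors and 0.313, 0.274 and 0.193 in KO livers (change 2.2 ± 0.46), and Grb10, an adaptor that dampens insulin receptor signaling (change 1.39 ± 0.36). Dlk1, a fetal hepatoblast surface gene, was at 2.16, 4.07 and 0.613 in KO tumors and 0.0610, 0.501 and 0.0867 in KO livers, without a call (adjusted p = 0.0714).

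**Figure D2:**
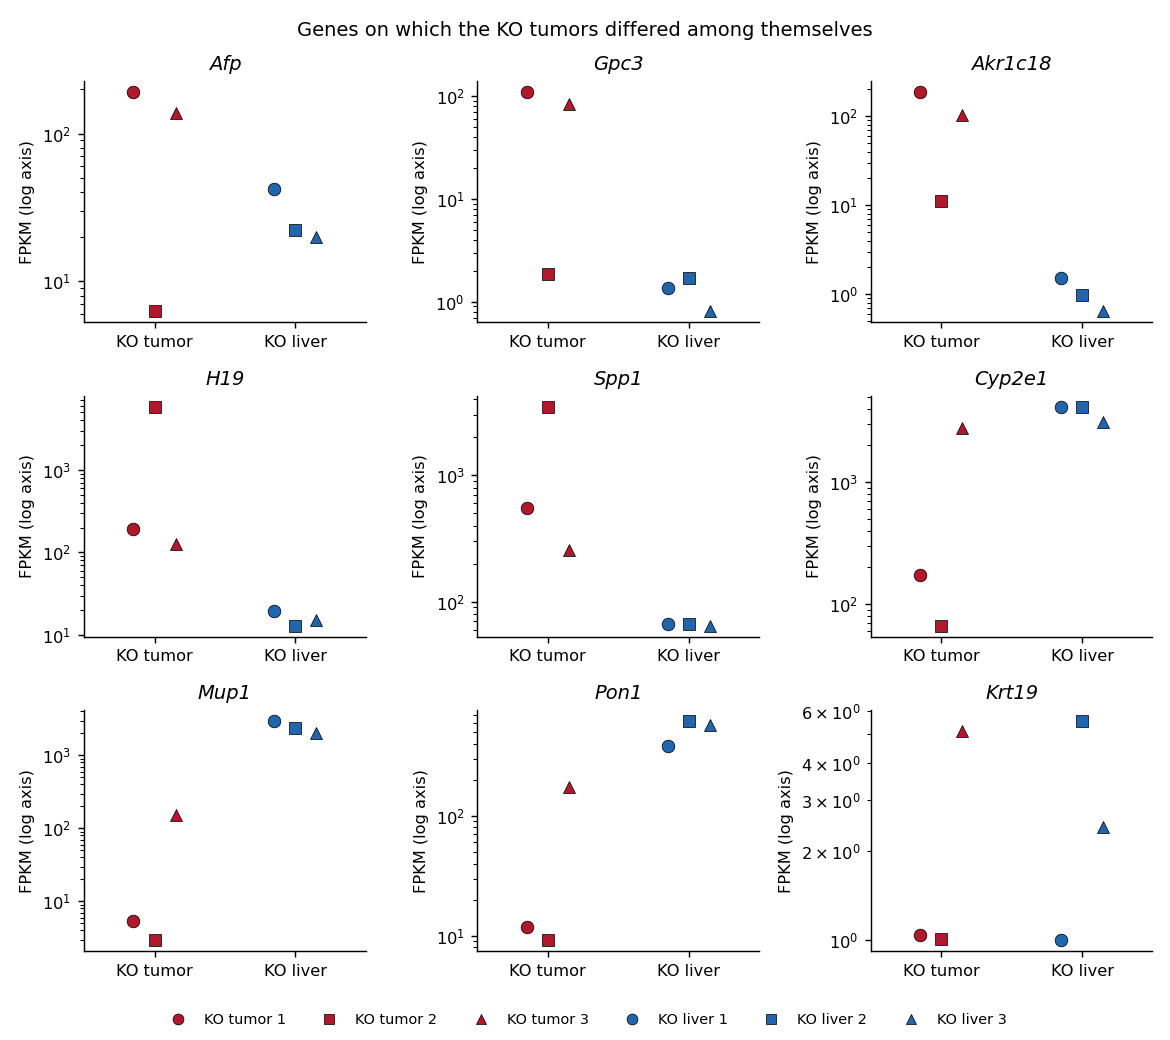
FPKM on a log axis of 9 named genes, chosen after their values were seen because the 3 KO tumors (red, left) differ on them, beside the 3 KO livers (blue, right), with 1 symbol per replicate number. KO tumor 2 (square) is lowest for Afp at 6.29 FPKM and highest for H19, and KO tumor 3 (triangle) stays close to the livers for Cyp2e1.

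Many cell cycle and DNA replication genes rose. Of 43 tested members 16 rose and 0 fell, 41 had a positive change, and the median was 1.52. The count was 0 (without KO liver 1, 2 or 3) to 32 (without KO tumor 3) in the fits that left out a library. Mki67, the gene of the proliferation antigen Ki-67, was at 3.07, 5.82 and 1.15 in KO tumors and 0.110, 0 and 0.00522 in KO livers (change 1.91 ± 0.39, adjusted p = 0.0247). KO tumor 2 was highest and KO tumor 3 lowest among the tumors, and the list mean followed this order with 1.26, 2.07 and 0.65 in KO tumors 1, 2 and 3. Ube2c, a ubiquitin-conjugating enzyme of mitotic exit, was at 9.52, 31.3 and 4.20 in KO tumors and 0.694, 0.427 and 0.0713 in KO livers (change 3.14 ± 0.61). Ccnb2, a mitotic cyclin, was at 5.16, 13.0 and 3.04 in KO tumors and 0.496, 0.493 and 0.384 in KO livers (change 2.27 ± 0.42). KO tumor 2 was the highest for both. Mcm2, of the replicative helicase, had a change of 1.52 ± 0.27, and the chromatin protein gene Hmgb2 one of 1.41 ± 0.25. Ccnd1, the G1 cyclin D1, was at 13.1, 27.4 and 8.41 in KO tumors, all above the highest KO liver, and 7.80, 1.48 and 5.96 in KO livers, but did not pass (change 1.54 ± 0.56, adjusted p = 0.103). In WT mice 33 members rose with a median of 1.07. By limma 0 were called for the difference, and 3 had an unadjusted p below 0.05 for it.

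The promoter of Ube2c shows the CHR element TTTGAA, a motif of promoters of genes expressed late in the cell cycle. The motif, searched on both strands of RefSeq promoters (GRCm38.p6, 250 bases before to 50 after a start), was present in 18 of 41 promoters of this list (43.9%), against 17.9% of all 32851 promoters. The 120 bases before the start of the gene (chr2:164769809-164769928, plus strand) are shown with the motif in capitals, here on the opposite strand, because this gene has the largest change of the list members named.
Ube2c: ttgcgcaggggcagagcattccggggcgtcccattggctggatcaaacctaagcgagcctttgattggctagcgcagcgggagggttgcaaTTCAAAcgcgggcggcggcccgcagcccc

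Targets of p53, the tumor suppressor that answers to DNA damage, were called in both directions. Of 21 tested members 4 rose and 1 fell, with a median of 0.42 that turned to −0.04 under a minimum mean FPKM of 5, and 0 (without KO liver 1, 2 or 3) to 6 (without KO tumor 3) rose where a library was left out. The rises were led by Psrc1, a microtubule-binding protein gene, at 2.51, 1.84 and 1.20 in KO tumors and 0.0590, 0.192 and 0.165 in KO livers (change 1.30 ± 0.21). All 3 KO tumors were above the livers. The cell death gene Pmaip1 had a change of 1.26 ± 0.28 and the death receptor gene Tnfrsf10b one of 0.85 ± 0.20. Fas, another death receptor gene, fell, at 6.16, 4.49 and 9.02 in KO tumors and 15.8, 13.0 and 13.4 in KO livers (change −1.04 ± 0.24). Cdkn1a, the inhibitor p21, was at 17.0, 91.7 and 58.5 in KO tumors and 13.9, 29.2 and 15.7 in KO livers, which overlapped, and did not pass (change 1.24 ± 0.60, adjusted p = 0.189). Among the tested p53 targets WT mice had 7 rises and 1 fall (median 0.23). The difference was called for 1 target, with the lower change in KO mice.

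For several groups of hepatocyte genes the list means of KO tumors 1 and 2 lay below those of the livers, while that of KO tumor 3 lay close to them. For genes of the cytochrome P450 family and drug metabolism, the list mean relative to the KO livers was −1.53, −2.08 and 0.07 in KO tumors 1, 2 and 3. Of 29 tested members 4 fell and 2 rose, with a median of −1.55. The count of falls was 0 (without KO liver 2 or 3) to 17 (without KO tumor 3) and that of rises 1 (without KO tumor 1 or KO liver 1, 2 or 3) to 4 (without KO tumor 2) when a library was left out. WT tumors had 17 falls and 2 rises on this list (median −1.14). By limma 0 members were called for the difference, with 3 at an unadjusted p below 0.05. Cyp2c29, which epoxidizes fatty acids and drugs, was at 37.0, 133 and 311 in KO tumors and 945, 872 and 1022 in KO livers (change −3.02 ± 0.69, adjusted p = 0.0322). Cyp2e1, the enzyme that activates DEN, was at 173, 66.6 and 2796 in KO tumors and 4167, 4103 and 3093 in KO livers. KO tumors 1 and 2 lay more than an order of magnitude below the livers and KO tumor 3 just below them, and the change of −3.55 ± 1.23 did not pass (adjusted p = 0.0919). Cyp2u1, a fatty acid hydroxylase gene, fell (−1.91 ± 0.43), while Cyp2a4 and Cyp2a5 rose. Cyp2a5 was at 1622, 1113 and 1648 in KO tumors and 564, 584 and 353 in KO livers (change 1.56 ± 0.32).

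Pericentral genes and Wnt targets showed a similar split, with list means of −1.81, −2.07 and −0.39 in the 3 tumors. Of 23 tested members 8 fell and 1 rose (median −1.36), with counts of falls of 0 (without KO tumor 1 or KO liver 2 or 3) to 17 (without KO tumor 3). The same members gave 13 falls and 2 rises in WT mice (median −0.94). By limma 0 were called for the difference, with 4 at an unadjusted p below 0.05. Lgr5, a Wnt target and receptor of R-spondins, was at 0.0999, 0.0738 and 0.221 in KO tumors and 0.743, 1.94 and 1.61 in KO livers (change −1.07 ± 0.23). Sp5, a transcription factor induced by Wnt, was at 0.154, 0.0579 and 0.823 in KO tumors and 2.63, 2.06 and 3.02 in KO livers (change −1.44 ± 0.25). Both were low in all 3 tumors, KO tumor 3 included. Slco1b2, an uptake transporter of bile acids and drugs, was at 24.0, 15.4 and 83.2 in KO tumors and 242, 368 and 226 in KO livers (change −3.07 ± 0.58). Glul, the glutamine synthetase of the cells around central veins, was at 52.8, 128 and 200.2 in KO tumors and 226, 212 and 240.4 in KO livers and did not pass (change −1.02 ± 0.46, adjusted p = 0.165). Sox9, a Wnt target and progenitor marker, was the member that rose, at 6.58, 11.5 and 2.83 in KO tumors and 1.29, 0.862 and 0.909 in KO livers (change 1.83 ± 0.40).

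Periportal genes, with the urea cycle among them, had list means of −0.91, −0.92 and 0.07 in the 3 tumors. Of 23 members 1 fell and 2 rose (median −0.79), shares near those of all genes, and in the fits that left out a library 0 (without KO tumor 1 or 2 or KO liver 1, 2 or 3) to 13 (without KO tumor 3) fell and 0 (without KO tumor 1 or KO liver 1, 2 or 3) to 3 (without KO tumor 3) rose. WT tumors had 9 falls and 2 rises on this list (median −0.71). By limma 0 members were called for the difference, with 3 at an unadjusted p below 0.05. Individual genes of KO mice follow. Otc, the urea cycle enzyme ornithine transcarbamylase, fell, at 110.4, 97.2 and 175 in KO tumors and 267, 285 and 265 in KO livers (change −1.13 ± 0.26). Cdh1, the gene of E-cadherin, rose (1.40 ± 0.33), as did Hsd17b13, a lipid droplet enzyme gene, at 1004, 684 and 786 in KO tumors and 352, 325 and 431 in KO livers (change 1.15 ± 0.26). For bile acid synthesis and transport the list means were −1.59, −1.48 and −0.22, with 3 falls and 1 rise among 21 members (median −0.93). The falls were 0 (without KO tumor 1 or KO liver 1, 2 or 3) to 11 (without KO tumor 3) where a library was left out. In WT tumors 8 of these members fell and 0 rose (median −0.9). By limma 0 were called for the difference, with 5 at an unadjusted p below 0.05. Abcb11, the export pump for bile salts, fell, at 21.3, 38.0 and 68.3 in KO tumors and 159.6, 151 and 250.1 in KO livers (change −2.22 ± 0.42). Abcc4, a pump toward the blood side, rose, at 9.60, 8.46 and 4.90 in KO tumors and 1.25, 1.02 and 1.27 in KO livers (change 1.95 ± 0.24). Cyp7a1, the rate-limiting enzyme of bile acid synthesis, spread over 1.01, 2.42 and 17.7 in KO tumors around the 7.48, 11.3 and 9.83 of KO livers, without a call (adjusted p = 0.36).

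Sex-biased genes and genes of the growth hormone axis, a list that holds Hsd3b5, Elovl3 and Slco1a1 and none of the urinary protein entries named above, fell in 8 of 29 tested members and rose in 1, Cyp2a4, with a median of −1.08. The list means of −1.41, −1.51 and −0.11 placed KO tumor 3 near the livers, and the count of falls was 1 (without KO liver 3) to 13 (without KO tumor 3) and that of rises 1 (without KO tumor 1 or KO liver 1, 2 or 3) to 4 (without KO tumor 2) in the fits that left out a library. Nudt7, a peroxisomal hydrolase of coenzyme A, was at 41.1, 68.0 and 156 in KO tumors and 583, 308 and 516 in KO livers (change −2.56 ± 0.50). WT tumors had 7 falls and 3 rises on this list (median −0.7). The difference was called for 1 member, with the lower change in KO mice. Among hepatocyte transcription factors the share called was near that of all genes. Of 25 members 2 fell, 1 rose, and the median of −0.24 turned to 0.18 after rescaling to a common sum. The falls were 0 (without KO tumor 1 or 2 or KO liver 1, 2 or 3) to 6 (without KO tumor 3) and the rises 0 (without KO tumor 1 or 2 or KO liver 1, 2 or 3) to 2 (without KO tumor 3) where a library was left out. In WT tumors 11 of these factors fell and 2 rose (median −0.35), and the difference was called for 2, both higher in KO mice. Hnf4a, the master regulator of hepatocyte genes, was at 116, 108 and 158 in KO tumors and 179, 152 and 122 in KO livers, which overlapped (change −0.25 ± 0.25, adjusted p = 0.513). It fell in WT mice (−0.91 ± 0.18, adjusted p = 0.0185), and the difference was not called (adjusted p = 0.225). Cebpa, which holds hepatocytes in a differentiated state, fell (−0.84 ± 0.22), as did Onecut2, a factor of early liver development (−0.70 ± 0.19), while Prox1, a regulator of liver development, rose, at 19.6, 21.7 and 14.5 in KO tumors and 9.98, 9.86 and 9.06 in KO livers (change 0.86 ± 0.19). Among 37 genes of plasma proteins, coagulation and complement 2 fell and 0 rose, with a median of −0.36 that turned to 0.07 on the common sum and 0.13 with quantile normalization. The falls, near the share of all genes, were 0 (without KO tumor 1 or 2 or KO liver 1, 2 or 3) to 6 (without KO tumor 3) where a library was left out. WT tumors had 1 fall and 0 rises on this list (median −0.21). C8g, a chain of complement factor 8, was at 89.7, 93.9 and 283 in KO tumors and 499, 651 and 601 in KO livers (change −2.11 ± 0.45), and Serpina1c, an antitrypsin gene with close copies, had a change of −1.30 ± 0.34.

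**Figure D3:**
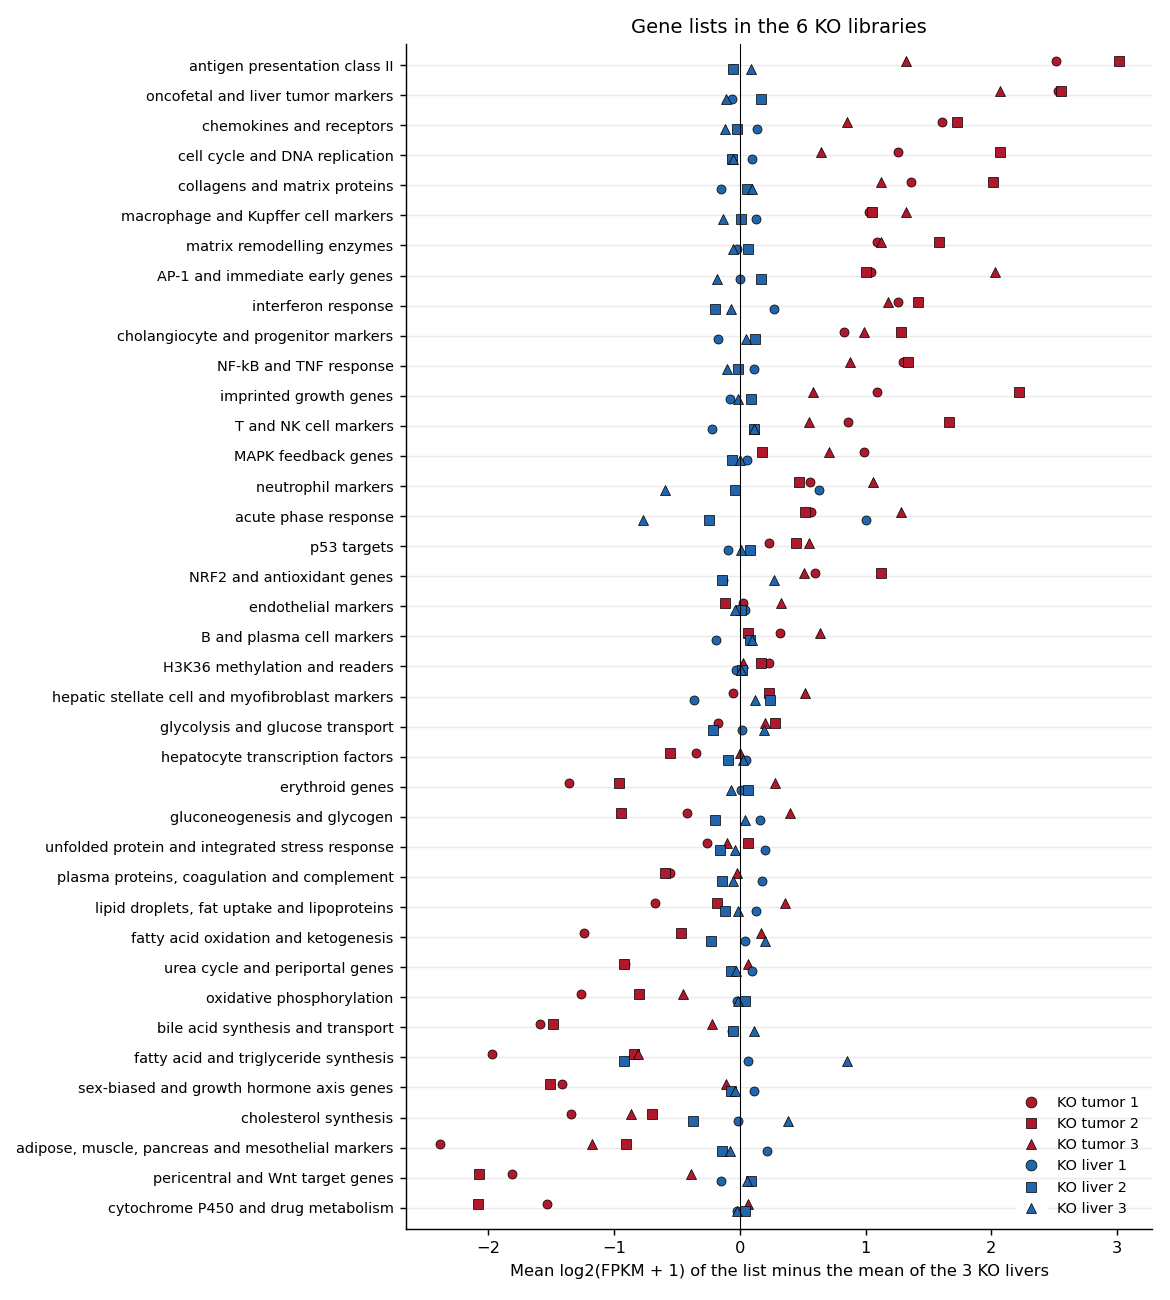
Mean log2(FPKM + 1) of each gene list in the 6 KO libraries, minus the mean of the 3 KO livers, with KO tumors in red drawn above KO livers in blue and 1 symbol per replicate number. KO tumors 1 and 2 lie far left for cytochrome P450 genes (−1.53 and −2.08) while KO tumor 3 lies beside the livers at 0.07, and all 3 tumors lie right of the livers for tumor markers, interferon response and matrix genes.

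Cholesterol synthesis genes were lower in KO tumors than in KO livers, with 9 of 23 called. Of the 23 tested members 9 fell, against 5.17% of all genes, and 0 rose, 20 had a negative change, and the median was −1.13 (−0.72 on the common sum). The list means were −1.34, −0.70 and −0.86 in KO tumors, against −0.01, −0.37 and 0.38 in KO livers, and the count of falls was 0 (without KO liver 3) to 10 (without KO tumor 3) in the fits that left out a library. Idi1, which isomerizes isopentenyl diphosphate, was at 2.95, 2.84 and 2.46 in KO tumors and 10.3, 7.12 and 6.97 in KO livers (change −1.27 ± 0.19, adjusted p = 0.0122). The tumors were nearly equal and all below the lowest liver. Msmo1, the methylsterol monooxygenase of the late pathway, was at 26.3, 31.6 and 45.0 in KO tumors and 76.9, 91.9 and 112 in KO livers (change −1.44 ± 0.25). Pmvk, phosphomevalonate kinase, was at 9.53, 13.8 and 18.7 in KO tumors and 54.5, 35.1 and 76.0 in KO livers (change −1.88 ± 0.34). Stard4, a carrier of cholesterol inside cells, was at 5.31, 4.76 and 6.84 in KO tumors and 23.8, 11.8 and 22.1 in KO livers (change −1.56 ± 0.28). For each of these the tumors lay below all livers. Sqle, squalene epoxidase, was at 13.1, 30.8 and 11.3 in KO tumors and 19.4, 10.5 and 21.3 in KO livers (change 0.02 ± 0.41, adjusted p = 0.973). In WT tumors 6 members rose and 2 fell, with a median of 0.36. The difference between genotypes was called for 4 of 23 members, all with the lower change in KO mice. A sterol element of the form TCACNCCAC on either strand was found in 1 of 20 RefSeq promoters of the list (5%), against 1.24% of all promoters.

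Fatty acid and triglyceride synthesis genes had a negative change in all 21 tested members, with a median of −1, but 1 passed, about the share of all genes, and 0 (without KO tumor 1 or KO liver 1 or 3) to 2 (without KO tumor 3) passed in the fits that left out a library. It was Mlxipl, the carbohydrate-responsive transcription factor ChREBP, at 33.8, 29.1 and 28.1 in KO tumors and 75.4, 52.0 and 97.6 in KO livers (change −1.24 ± 0.26). The list means were −1.97, −0.84 and −0.81 in KO tumors and 0.07, −0.92 and 0.85 in KO livers, and KO liver 2 lay among the tumors. Fasn, fatty acid synthase, was at 24.2, 108 and 62.9 in KO tumors and 135, 52.1 and 728 in KO livers (change −1.64 ± 0.96, adjusted p = 0.271). Acacb, the acetyl-CoA carboxylase of mitochondria, was at 0.968, 2.07 and 4.62 in KO tumors and 22.2, 3.98 and 30.1 in KO livers (adjusted p = 0.0737). Among the same 21 members WT mice had 4 rises and 1 fall (median 0.1). For the difference 0 were called by limma, with 6 at an unadjusted p below 0.05.

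Genes of fat uptake and lipid droplets went both ways. Of 27 tested members 4 rose and 1 fell (median −0.52). Where a library was left out 2 (without KO tumor 1 or KO liver 1, 2 or 3) to 4 (without KO tumor 3) rose and 0 (without KO tumor 1 or KO liver 1, 2 or 3) to 8 (without KO tumor 3) fell. Lpl, lipoprotein lipase, which adult hepatocytes hardly express, was at 60.0, 53.2 and 21.8 in KO tumors and 1.92, 3.82 and 2.30 in KO livers (change 3.55 ± 0.40, adjusted p = 0.00729). Fabp4, a fatty acid carrier of adipocytes, macrophages and endothelium, was at 71.3, 128 and 81.3 in KO tumors and 17.4, 17.3 and 13.9 in KO livers (change 2.42 ± 0.25). The apolipoprotein gene Apoa4 was at 704, 535 and 2188 in KO tumors and 77.2, 202 and 127 in KO livers (change 2.89 ± 0.58). KO tumors were above all KO livers for each. The adipocyte markers Adipoq and Plin1 were at or below 0.0387 in every KO library. Fabp1, the fatty acid carrier of hepatocytes, fell, at 1026, 3048 and 3189.8 in KO tumors and 16474, 6983 and 13040.0 in KO livers (change −2.41 ± 0.57).

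Fatty acid oxidation and oxidative phosphorylation were lowest in KO tumor 1. For oxidation and ketogenesis the list means were −1.24, −0.47 and 0.17, with 1 of 22 members falling (median −0.56), near the share of all genes. The falls were 0 (without KO liver 1, 2 or 3) to 10 (without KO tumor 3) when a library was left out. The member was Etfdh, which passes electrons from fat oxidation to ubiquinone, at 35.7, 40.8 and 53.2 in KO tumors and 100.2, 104 and 94.2 in KO livers (change −1.20 ± 0.20). In WT mice 15 of the 22 fell, with a median of −0.80, and by limma 0 were called for the difference, with 3 at an unadjusted p below 0.05. Cpt1a, which admits fatty acids to mitochondria, was at 122, 90.5 and 166 in KO tumors and 106, 59.9 and 43.9 in KO livers and did not pass (change 0.89 ± 0.37, adjusted p = 0.14). All 36 nuclear genes of oxidative phosphorylation had a negative change (median −0.87, and −0.44 on the common sum). Of these 6 fell, against 5.17% of all genes, with list means of −1.26, −0.80 and −0.45 in the tumors. The falls were 0 (without KO tumor 1 or 2 or KO liver 1, 2 or 3) to 28 (without KO tumor 3) where a library was left out. In WT tumors 10 of the 36 fell and 0 rose (median −0.37). By limma 0 were called for the difference, with 6 at an unadjusted p below 0.05. Cox7a2, of complex IV, was at 77.7, 108 and 134 in KO tumors and 251, 243 and 224 in KO livers (change −1.19 ± 0.25). Sdhd, of complex II, had a change of −1.03 ± 0.22 and Ndufb5, of complex I, one of −0.97 ± 0.23.

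Genes of glucose metabolism were called about as often as all genes. Among 25 genes of glycolysis and glucose transport 1 rose and 1 fell, with a median of −0.08 that changed sign under 7 alternatives, among them 0.36 on the common sum, and 0 (without KO tumor 1 or KO liver 1, 2 or 3) to 3 (without KO tumor 3) rose and 0 (without KO tumor 1 or 2 or KO liver 1, 2 or 3) to 2 (without KO tumor 3) fell where a library was left out. Slc2a1, the glucose transporter GLUT1, rose, at 12.7, 16.3 and 10.7 in KO tumors and 4.24, 7.40 and 5 in KO livers (change 1.13 ± 0.24), and Pfkfb1, a liver regulator of glycolysis, fell (−1.45 ± 0.39). Pfkp, a phosphofructokinase of platelets and tumors, was at 8.42, 27.7 and 2.81 in KO tumors, with KO tumor 2 far on top, and 0.879, 1 and 1.13 in KO livers (adjusted p = 0.0529). Of 19 genes of gluconeogenesis and glycogen 2 rose and 1 fell, with a median of −0.33 that turned to 0.10 on the common sum and 0.09 without KO tumor 2. Where a library was left out 0 (without KO tumor 1 or KO liver 1, 2 or 3) to 2 (without KO tumor 2 or 3) rose and 0 (without KO tumor 1 or 2 or KO liver 1, 2 or 3) to 4 (without KO tumor 3) fell. The mitochondrial enzyme gene Pck2 rose (1.34 ± 0.30) and Pygl, liver glycogen phosphorylase, fell, at 64.2, 114 and 130.3 in KO tumors and 264, 194 and 353 in KO livers (change −1.41 ± 0.35). Pck1, the cytosolic enzyme that commits carbon to glucose, was at 549, 89.6 and 1614 in KO tumors and 1389.8, 849.9 and 169 in KO livers, with wide spread in both (adjusted p = 0.82).

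A share of the genes of acute signaling rose in KO tumors. Of 18 tested AP-1 and immediate early genes 6 rose and 0 fell, with a median of 1.21, against 9.09% of all genes rising, and 2 (without KO liver 2 or 3) to 6 (without KO tumor 2 or 3) rose where a library was left out. The list means were 1.04, 1 and 2.03, with KO tumor 3 on top. Ier3, an early response gene that protects from cell death, was at 35.2, 21.3 and 22.1 in KO tumors and 2.22, 1.15 and 1.52 in KO livers (change 3.35 ± 0.25, adjusted p = 0.00364). Klf6, a zinc finger gene, was at 14.5, 13.0 and 31.5 in KO tumors and 2.14, 2.38 and 1.75 in KO livers (change 2.64 ± 0.32). KO tumor 1 was highest for Ier3 and KO tumor 3 for Klf6. Myc, the growth regulator, was at 5.87, 6.21 and 13.2 in KO tumors and 1.88, 1.31 and 1.09 in KO livers (change 1.89 ± 0.30). Jun, a subunit of AP-1, was at 20.5, 26.6 and 84.6 in KO tumors and 6.80, 12.4 and 8.00 in KO livers (change 1.92 ± 0.51). Atf3, a stress-induced factor, was at 5.37, 15.1 and 40.8 in KO tumors and 1.02, 0.838 and 0.743 in KO livers (change 3.12 ± 0.60). For Myc, Jun and Atf3 KO tumor 3 was the highest. In WT mice 0 members rose and 1 fell, with a median of −0.03, and 3 members were called for the difference, all higher in KO mice, among them Ier3 (3.37 ± 0.30) and Klf6 (2.69 ± 0.51). The list mean, relative to the KO livers, was 0.94, 0.46 and 0.64 in WT tumors and 1.6, 0.41 and 1.11 in WT livers. WT livers 1 and 3 lay above KO tumors 1 and 2. The motif TGACTCA of AP-1, on either strand, was found in 0 of 23 promoters of this list, against 5.2% of all promoters, which says only that these letters are not in these windows.

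Of 20 tested NF-kB and TNF response genes 11 rose and 0 fell (median 1.01), and 2 (without KO liver 2) to 13 (without KO tumor 3) rose where a library was left out. Tnfrsf12a, the receptor of the cytokine TWEAK, was at 144, 93.2 and 60.9 in KO tumors and 9.24, 10.1 and 6.86 in KO livers (change 3.30 ± 0.32, adjusted p = 0.00566). Cd14, the co-receptor for lipopolysaccharide, was at 57.2, 47.7 and 49.0 in KO tumors and 6.21, 2.66 and 1.65 in KO livers (change 3.66 ± 0.35). The 3 KO tumors were close to each other for Cd14. Vcam1, an adhesion molecule gene, was at 21, 38.8 and 18.1 in KO tumors and 4.74, 3.01 and 1.76 in KO livers (change 2.68 ± 0.36), and the adhesion molecule gene Icam1 had a change of 1.70 ± 0.27. In WT mice 4 members rose and 5 fell, and the difference was called for 3, all higher in KO mice. Among 20 MAPK feedback genes and ligands 6 rose and 0 fell, with a median of 0.66 that turned to −0.06 under a minimum mean FPKM of 5, and 1 (without KO liver 1, 2 or 3) to 8 (without KO tumor 2) rose where a library was left out. Areg, the EGF receptor ligand amphiregulin, was at 2.27, 1.41 and 1.88 in KO tumors and is listed at 0 in all KO livers (adjusted p = 0.00777). Hbegf, another ligand of this receptor, was at 6.45, 2.34 and 3.72 in KO tumors and 0.512, 0.676 and 1.03 in KO livers (change 1.51 ± 0.30), and the feedback genes Dusp4 and Spry1 had changes of 1.64 ± 0.30 and 1.19 ± 0.25. Egfr, the receptor itself, was at 59.1, 11.1 and 82.5 in KO tumors and 103, 40.7 and 58.8 in KO livers, which overlapped (change −0.70 ± 0.72, adjusted p = 0.527).

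Antioxidant targets of NRF2 rose in 5 of 25 members, with 0 falls and a median of 0.27, and 3 (without KO tumor 1 or 2 or KO liver 1, 2 or 3) to 5 (without KO tumor 3) rose where a library was left out. Nqo1, a quinone reductase, was at 80.7, 76.4 and 38.7 in KO tumors and 5.21, 5.46 and 7.28 in KO livers (change 3.19 ± 0.30, adjusted p = 0.00546). Srxn1, sulfiredoxin, was at 68.8, 58.7 and 49.0 in KO tumors and 10.9, 11.2 and 16.1 in KO livers (change 2.13 ± 0.22). Slc7a11, the cystine carrier, was at 13.9, 5.18 and 1.21 in KO tumors and 0.0573, 0.0376 and 0.0251 in KO livers (change 2.50 ± 0.61). The last gene differed more than 10-fold between KO tumors 1 and 3. Among the same members WT mice had 7 rises and 3 falls (median −0.09). The difference between genotypes was called for 5 members, all higher in KO mice.

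Acute phase genes, which the liver makes under inflammation, had medians of opposite sign in KO and WT mice. Of 24 members 1 rose, 1 fell, shares below those of all genes, and the median was 0.65. Without KO liver 1, where 232 of all 11671 genes rose, 4 members rose. The median was −1.34 in WT mice, where 0 rose and 13 fell. Relative to the KO livers, the list mean was −0.14, 0.27 and −0.25 in WT tumors and 0.67, 1.9 and 2.3 in WT livers. WT livers 2 and 3 lay above every KO library. The list means were 0.57, 0.52 and 1.28 in KO tumors and 1, −0.24 and −0.77 in KO livers, where KO liver 1 lay above KO tumors 1 and 2. Saa1, serum amyloid A, showed this spread, at 326, 384 and 648 in KO tumors and 1419, 277 and 68.7 in KO livers (change 0.52 ± 0.98, adjusted p = 0.744). Lcn2 was the rise and Serpina3k, an abundant serine protease inhibitor with close copies, the fall, at 966, 780.4 and 5087 in KO tumors and 9582, 8932 and 10226 in KO livers (change −2.61 ± 0.70). The difference was called for 4 members, all higher in KO mice, among them Socs3, the feedback inhibitor of cytokine signaling, with a KO change of 0.93 ± 0.33 (adjusted p = 0.0941) and a WT change of −2.33 ± 0.20 (adjusted p = 0.00176). Socs3 was at 6.53, 5.99 and 8.32 in KO tumors and 5.01, 3.71 and 1.5 in KO livers, against 4.32, 5.14 and 3.39 in WT tumors and 20.9, 23.3 and 33.0 in WT livers.

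Some chaperones of the endoplasmic reticulum fell. Of 27 genes of the unfolded protein and integrated stress response 5 fell and 2 rose, with a median of −0.33 that turned to 0.10 on the common sum and 0.01 with quantile normalization. The falls numbered 0 (without KO liver 1, 2 or 3) to 6 (without KO tumor 3) and the rises 0 (without KO tumor 1 or KO liver 1, 2 or 3) to 3 (without KO tumor 3) where a library was left out. Hspa5, the main chaperone BiP, was at 289, 287 and 291 in KO tumors, nearly the same in all 3, and 583, 465 and 501 in KO livers (change −0.83 ± 0.21, adjusted p = 0.0444). Its partner Hyou1 fell too (−1.41 ± 0.22). Manf, a secreted stress factor, was at 41.5, 42.7 and 42.5 in KO tumors and 101, 85.8 and 99.8 in KO livers (change −1.16 ± 0.17). The tumors were again nearly equal. Sel1l, of the complex that degrades misfolded proteins, had a change of −0.93 ± 0.17. The pseudokinase gene Trib3 of the ATF4 branch rose, at 15.4, 28.8 and 10.1 in KO tumors and 4, 2.2 and 4.21 in KO livers (change 2.01 ± 0.38). Among the same 27 members WT mice had 5 falls and 2 rises (median −0.53). For the difference 0 were called by limma, with 2 at an unadjusted p below 0.05. Promoters holding both CCAAT and CCACG, the parts of the ER stress element, made up 19 of 25 of this list (76%), against 11.7% of all promoters. The 120 bases before the start of Hspa5 (chr2:34771970-34772089, plus strand) are shown because they hold both parts, in capitals.
Hspa5: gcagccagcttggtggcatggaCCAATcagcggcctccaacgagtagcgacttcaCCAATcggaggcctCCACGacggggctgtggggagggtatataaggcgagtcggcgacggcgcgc

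Most interferon response genes rose. Of 31 tested members 17 rose, 0 fell and 30 had a positive change (median 1.17), against 9.09% of all genes rising, with list means of 1.26, 1.42 and 1.18 in KO tumors, against 0.27, −0.20 and −0.07 in KO livers. The count was 5 (without KO liver 2 or 3) to 19 (without KO tumor 3) in the fits that left out a library. Isg15, a ubiquitin-like modifier, was at 63.8, 58.0 and 60.0 in KO tumors and 16.7, 10.5 and 12.3 in KO livers (change 2.14 ± 0.20, adjusted p = 0.00546). The 3 tumors were nearly equal. Zbp1, a sensor of nucleic acids in the Z form, was at 31.2, 40.6 and 29.8 in KO tumors and 7.83, 3.63 and 3.93 in KO livers (change 2.56 ± 0.28). The GTPase gene Gbp3 was at 10.4, 5.53 and 6.84 in KO tumors and 1.42, 1.01 and 0.831 in KO livers (change 2.01 ± 0.24). Xaf1, a proapoptotic gene, was at 8.49, 13.4 and 11.1 in KO tumors and 2.53, 2.22 and 2.54 in KO livers (change 1.79 ± 0.19). In WT mice 6 members rose (median 0.48), and the difference was called for 3, among them Gbp3 (1.59 ± 0.29) and Xaf1 (1.30 ± 0.29).

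The core of the interferon-stimulated response element, GAAANNGAA on either strand, was present in 15 of 30 promoters of the list (50%), against 8.56% of all promoters. Among members with a promoter in the table it was found for 8 of 13 that rose and 3 of 9 that were tested without a call. Another promoter of Gbp3 and the promoter of Xaf1, which also rose, hold 0 copies. The 120 bases before a start of Isg15 (chr4:156200819-156200938, minus strand) and of Gbp3 (chr3:142559924-142560043, plus strand) are shown because they carry overlapping copies, in capitals. The copies lie on the strand shown for Isg15 and on the opposite strand for Gbp3.
Isg15: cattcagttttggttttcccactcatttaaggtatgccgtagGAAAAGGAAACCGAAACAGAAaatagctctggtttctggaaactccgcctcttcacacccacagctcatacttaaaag
Gbp3: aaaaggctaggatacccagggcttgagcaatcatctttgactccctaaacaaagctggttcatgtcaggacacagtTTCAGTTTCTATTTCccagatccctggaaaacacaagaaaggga

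Genes of antigen presentation on MHC class II rose in all 8 tested members, with a median of 2.40 and list means of 2.51, 3.01 and 1.32 in the 3 KO tumors. In fits that left out a library 0 (without KO liver 2 or 3) to 8 (without KO tumor 3) rose. Cd74, the invariant chain, was at 879, 1128 and 205 in KO tumors and 78.7, 76.8 and 91.3 in KO livers (change 2.83 ± 0.60, adjusted p = 0.0276). H2-Ab1, a class II beta chain gene, was at 222, 348 and 77.3 in KO tumors and 25.8, 29.3 and 32.9 in KO livers (change 2.60 ± 0.51). Ctss, the protease that trims the invariant chain, was at 131, 189.8 and 84.8 in KO tumors and 30.9, 30.0 and 21 in KO livers (change 2.21 ± 0.32). KO tumor 3 was the lowest tumor for all 3 genes, and none overlapped with the livers. In WT mice 5 of the 8 rose (median 1.21), and by limma 0 were called for the difference, with 2 at an unadjusted p below 0.05. Of 19 chemokine and chemokine receptor genes 6 rose and 0 fell (median 1.63), and 1 (without KO liver 1, 2 or 3) to 12 (without KO tumor 3) rose where a library was left out. Ccl9, a chemokine of myeloid cells, was at 65.7, 55.1 and 48.4 in KO tumors and 9.08, 7.84 and 10.7 in KO livers (change 2.49 ± 0.19, adjusted p = 0.00364). Cxcl10, which interferon induces, was at 42.0, 22.0 and 8.56 in KO tumors and 3.86, 2.28 and 1.73 in KO livers (change 2.59 ± 0.52). Cxcr4, the receptor of CXCL12, was at 9.13, 10.2 and 3.29 in KO tumors and 0.600, 1.08 and 0.718 in KO livers (change 2.14 ± 0.36).

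Many markers of macrophages rose too, but the tumors took another order. The list means were 1.03, 1.05 and 1.32 in KO tumors, with KO tumor 3 highest. For the class II and chemokine lists KO tumor 3 was the lowest tumor. Of 30 tested markers 16 rose and 0 fell (median 1.36), and 2 (without KO liver 3) to 18 (without KO tumor 3) rose where a library was left out. Without KO tumor 3 there were also 5 falls. FPKM of the list summed to 2002, 5506 and 1795 in KO tumors, against 844, 750.4 and 684 in KO livers. Spp1 supplied most of the sum of KO tumor 2, and without it the sums were 1449, 2001 and 1541 in KO tumors and 778, 684 and 620.0 in KO livers. Csf1r, C1qa and Cd68, 3 of the 5 defining markers, rose. The part of these cells in the rises of class II, chemokine, interferon and NF-kB genes was not tested. Cd68, a lysosomal macrophage marker, was at 22.3, 48.5 and 27.6 in KO tumors and 11.1, 7.98 and 9.06 in KO livers (change 1.64 ± 0.30). Trem2, a receptor of lipid-laden macrophages, was at 5.63, 10.8 and 4.90 in KO tumors and 0.649, 1.05 and 0.371 in KO livers (change 2.21 ± 0.30). Cd63, a tetraspanin that other cells also make, was at 136, 149.9 and 76.5 in KO tumors and 7.96, 10.5 and 10.3 in KO livers (change 3.47 ± 0.28). The resident Kupffer cell marker Clec4f did not pass, at 12.5, 2.55 and 89.7 in KO tumors, with KO tumor 2 lowest and KO tumor 3 above every liver, and 48.6, 34.6 and 32.1 in KO livers. The list also holds Cd14 and Spp1, which are counted in other lists. In WT mice 6 markers rose and 2 fell, with a median of −0.11.

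Among markers of lymphocytes and neutrophils 1 gene was called. Of 27 T and NK cell markers 8 were tested, 1 rose and 0 fell, which was Ltb, lymphotoxin beta, at 32.1, 48.4 and 30.5 in KO tumors and 1.38, 2.68 and 2.44 in KO livers (change 3.58 ± 0.25). Without KO tumor 3 the rises were 4 of 8. The T cell marker Cd3e was at 0.609, 2.68 and 0.295 in KO tumors and 0.292, 0.244 and 0.352 in KO livers. The cytotoxic cell marker Nkg7 was at 1.71, 7.14 and 1.66 in KO tumors and 0.373, 0.779 and 1.71 in KO livers. Both were highest in KO tumor 2. FPKM of the whole list summed to 52.5, 107 and 48.3 in KO tumors and 11, 18.2 and 16.7 in KO livers. Ltb made up a large part, and without it the sums were 20.4, 58.9 and 17.9 in KO tumors and 9.58, 15.6 and 14.3 in KO livers. Of 5 tested neutrophil markers and 5 tested B and plasma cell markers 0 were called in either direction by limma, and 2 and 1 had an unadjusted p below 0.05. Without KO tumor 3 there were 2 rises among the neutrophil markers, and without KO tumor 2 there was 1 among the B and plasma cell markers. Cd79a, of B cells, was at 0.661, 0.207 and 1.98 in KO tumors and 0.438, 1.19 and 1.38 in KO livers. S100a9, of neutrophils, was at 14.1, 10.5 and 25.9 in KO tumors and 16.3, 7.90 and 3.51 in KO livers. The highest library was KO tumor 3, and the groups overlapped. Alas2, the heme enzyme of red cell precursors, was the 1 call among 3 tested erythroid genes, at 7.12, 16.3 and 34.6 in KO tumors and 78.0, 93.9 and 86.3 in KO livers (change −2.34 ± 0.49).

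Most matrix genes rose. Of 32 tested collagens and matrix proteins 21 rose and 1 fell (median 1.45), against 9.09% of all genes rising, with list means of 1.36, 2.01 and 1.12 in KO tumors and −0.15, 0.06 and 0.10 in KO livers. The count of rises was 4 (without KO liver 2) to 25 (without KO tumor 3) in the fits that left out a library, and that of falls 0 (without KO tumor 1 or KO liver 1, 2 or 3) to 3 (without KO tumor 3). Col1a1, a chain of fibrillar collagen I, was at 33.2, 60.1 and 14.2 in KO tumors and 1.09, 1.46 and 1.31 in KO livers (change 3.79 ± 0.46, adjusted p = 0.00807). KO tumor 2 was highest and KO tumor 3 lowest, an order that Col3a1 shared at 42.0, 76.3 and 28.0 in KO tumors and 3.91, 4.16 and 4.63 in KO livers (change 3.13 ± 0.34). Col5a2 was at 4.14, 5.93 and 4.66 in KO tumors and 0.384, 0.441 and 0.234 in KO livers (change 2.12 ± 0.18). Nid1, of basement membranes, was at 59.3, 22.6 and 23.6 in KO tumors and 2.80, 3.76 and 3.79 in KO livers (change 2.89 ± 0.37). In WT mice 10 members rose (median 0.30), and the difference was called for 5, among them Col1a1 (2.60 ± 0.57) and Col5a2 (1.55 ± 0.22), all higher in KO mice. Of 31 matrix remodelling enzymes 14 rose and 0 fell (median 1.26), and 0 (without KO liver 2 or 3) to 19 (without KO tumor 3) rose where a library was left out. Timp3, an inhibitor of matrix proteases, was at 25.3, 22.8 and 15.5 in KO tumors and 7.04, 6.16 and 5.69 in KO livers (change 1.58 ± 0.21). Plaur, the urokinase receptor, was at 8.17, 5.11 and 2.65 in KO tumors and 0.522, 0.152 and 0.289 in KO livers (change 2.17 ± 0.33). No tumor overlapped with a liver. Plau, urokinase itself, had a change of 1.42 ± 0.20, and Pcolce, which helps to process procollagen, one of 1.72 ± 0.27.

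Stellate cells and myofibroblasts usually make the matrix of the liver. Of 16 tested markers of these cells 2 rose, not far from the 9.09% of all genes, and 0 fell, or 2 without KO tumor 3, with a median of 0.00 whose sign differed between alternatives, and FPKM of the list summed to 123, 181 and 256 in KO tumors and 112, 184 and 191 in KO livers. The rises, 0 (without KO tumor 1 or KO liver 1, 2 or 3) to 4 (without KO tumor 3) where a library was left out, were Pdgfrb, a growth factor receptor of these cells, at 3.88, 6.91 and 3.26 in KO tumors and 0.787, 1.23 and 1.40 in KO livers (change 1.37 ± 0.26), and Cygb, a globin of these cells (change 1.24 ± 0.26). Acta2, smooth muscle actin, was at 17.5, 11.4 and 34.0 in KO tumors, all above the KO livers, and 3.88, 8.85 and 8.97 in KO livers and did not pass (change 1.36 ± 0.43, adjusted p = 0.0767). The quiescent stellate cell marker Lrat was at 1.29, 0.519 and 1.56 in KO tumors and 1.85, 2.19 and 2.89 in KO livers. The part of these cells in the matrix rises was not tested.

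Endothelial markers went both ways. Of 26 tested markers 5 rose and 3 fell, with a median of 0.22 that turned to −0.03 without KO tumor 3 and −0.07 under a minimum mean FPKM of 5, and 0 (without KO liver 2 or 3) to 8 (without KO tumor 3) rose where a library was left out. The falls were then 0 (without KO liver 1, 2 or 3) to 6 (without KO tumor 3). Esm1, a marker of sprouting tip cells, was at 20.9, 6.48 and 9.48 in KO tumors and 1.82, 0.750 and 0.656 in KO livers (change 2.57 ± 0.41). Apln, another tip cell gene, was at 1.48, 2.53 and 1.24 in KO tumors and is listed at 0 in all KO livers, and Cdh5, of endothelial junctions, had a change of 1.03 ± 0.20. Wnt2, which central endothelium secretes, fell, at 0.203, 0.0902 and 0.832 in KO tumors and 3.17, 2.45 and 3.17 in KO livers (change −1.55 ± 0.23). The sinusoidal marker Clec4g was at 10, 1.08 and 31.9 in KO tumors and 76.3, 59.2 and 52.2 in KO livers. Stab2 was at 5.80, 1.86 and 14.5 in KO tumors and 14.1, 14.3 and 13.5 in KO livers. KO tumor 2 was the lowest for both, and neither passed (adjusted p = 0.075 and 0.181). Pecam1, of all endothelium, was at 17.6, 30.3 and 23.5 in KO tumors and 14.4, 13.4 and 10.1 in KO livers (change 0.84 ± 0.24, adjusted p = 0.0581).

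Of 19 tested cholangiocyte and progenitor markers 7 rose and 0 fell (median 1.14), and 1 (without KO liver 1, 2 or 3) to 8 (without KO tumor 2) rose where a library was left out. The defining bile duct marker Krt19 was not among the rises, at 1.04, 1.01 and 5.13 in KO tumors and 0.997, 5.54 and 2.42 in KO livers (change −0.28 ± 0.56, adjusted p = 0.763). Its highest tumor was KO tumor 3 and its highest liver KO liver 2, and the groups overlapped. Krt7, another duct keratin, was at 0.561, 0.403 and 2.57 in KO tumors and 0.664, 1.73 and 0.862 in KO livers, and Epcam, an adhesion molecule of ducts and progenitors, was at 1.20, 1.98 and 1.75 in KO tumors and 0.562, 2.75 and 1.69 in KO livers. Both overlapped too and were without a call (changes −0.04 and 0.06). The keratin gene Krt8 was at 367, 599 and 515 in KO tumors and 155, 125 and 168 in KO livers (change 1.70 ± 0.26). Its partner Krt18 was at 591, 759 and 895 in KO tumors and 212, 158 and 292 in KO livers (change 1.78 ± 0.31). The progenitor surface gene Prom1 was at 5.17, 3.91 and 3.87 in KO tumors and 0.401, 1.02 and 0.616 in KO livers (change 1.67 ± 0.20). Bicc1, an RNA-binding protein gene, had a change of 2.12 ± 0.40. The 12 members without a rise include Krt19, Krt7 and Epcam. Among the same 19 members WT mice had 8 rises and 0 falls (median 0.65). The difference was called for 1 member with the higher and 1 with the lower change in KO mice. Among 3 tested markers of adipose tissue, muscle, pancreas and mesothelium 1 fell, Cela1, an elastase gene (−1.26 ± 0.24). Prss1, the pancreatic trypsinogen gene, is listed at 0 in all KO libraries.

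**Figure D4:**
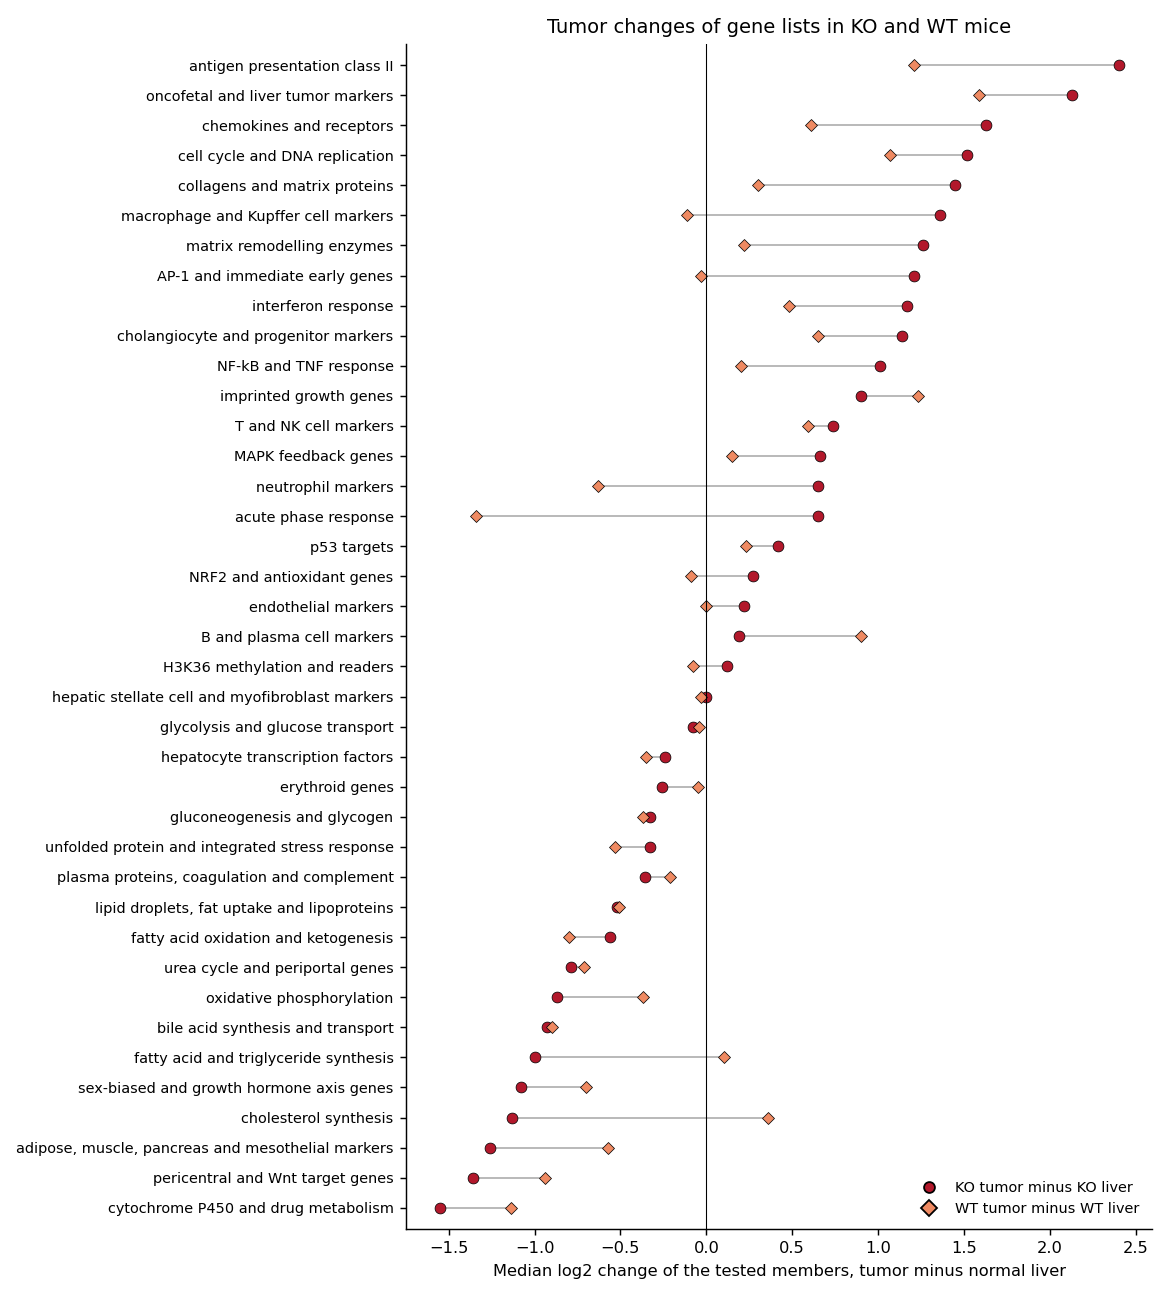
Median log2 change, tumor minus normal liver, of the tested members of each gene list in KO mice (circles) and WT mice (diamonds), joined by a line. Lists are ordered by the KO median, and cholesterol synthesis (−1.13 in KO and 0.36 in WT mice) and the acute phase response (0.65 in KO and −1.34 in WT mice) lie on opposite sides of 0.

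The genes with the largest differences between the tumor changes of KO and WT mice fell into 3 shapes. For 6 of the 12 named the normal livers of KO and WT mice did not overlap, a contrast that was not tested, while KO tumors overlapped with WT libraries. Tnfrsf12a was at 86.0, 63.9 and 65.2 in WT tumors and 55.5, 168 and 77.6 in WT livers, close to the KO tumors, while KO livers were at most at 10.1 (difference 3.63 ± 0.54, adjusted p = 0.0189). Srxn1, at 46.4, 23.8 and 31.6 in WT tumors and 40.6, 263 and 93.9 in WT livers, had a difference of 3.72 ± 0.73. KO livers were the lowest group for both. Fkbp5, a cochaperone that glucocorticoids induce, was at 76.8, 54.7 and 70.3 in KO tumors and 35.3, 8.36 and 6.59 in KO livers, against 23.2, 24.2 and 21.8 in WT tumors and 44.5, 37.4 and 56.8 in WT livers. It rose in KO mice (2.30 ± 0.56) and fell in WT mice (−0.95 ± 0.16), with a difference of 3.26 ± 0.64 (adjusted p = 0.0365). Ppl, periplakin, was at 12.3, 3.18 and 4.48 in KO tumors and 1.21, 1.81 and 1.83 in KO livers, against 3.65, 4.12 and 5.15 in WT tumors and 11.2, 26.5 and 15.3 in WT livers (difference 3.11 ± 0.55). Prss8, a membrane protease gene, was at 10.4, 10.6 and 16.0 in KO tumors and 25.3, 16.4 and 25.9 in KO livers, against 11.5, 7.47 and 6.83 in WT tumors and 1.75, 1.23 and 0.996 in WT livers. Its change was −0.82 ± 0.25 in KO mice (adjusted p = 0.069) and 2.03 ± 0.22 in WT mice (adjusted p = 0.00355), and the difference was −2.85 ± 0.34 (adjusted p = 0.012). Sucnr1, the receptor of succinate, was at 12.2, 2.35 and 21.5 in KO tumors and 63.0, 84.4 and 100 in KO livers, against 14.7, 18 and 27.2 in WT tumors and 15.6, 9.94 and 15.9 in WT livers (difference −3.52 ± 0.77, adjusted p = 0.0451). KO livers were the highest group and the KO tumors spread around the WT values.

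For 5 genes the KO tumors lay outside the range of all other libraries. Cybb was at 7.45, 3.21 and 3.74 in WT tumors and 3.11, 3.65 and 2.61 in WT livers, near the KO livers, and its difference was 3.42 ± 0.58 (adjusted p = 0.0275). Cd14 was at 7.70, 12.3 and 7.26 in WT tumors and 4.82, 8.26 and 13.8 in WT livers, and the lowest KO tumor lay more than 3-fold above the highest of these (difference 3.57 ± 0.54, adjusted p = 0.0192). Hsd3b5 was at 22.0, 92.4 and 48.4 in WT tumors and 104, 89.4 and 63.8 in WT livers (difference −4.52 ± 0.92, adjusted p = 0.04), and Sdr9c7 at 12.1, 20.8 and 38.1 in WT tumors and 31.1, 22.8 and 20.4 in WT livers (difference −3.15 ± 0.49). Every WT tumor lay above every KO tumor for both. Insig1, the protein that holds the SREBP cholesterol regulator in the endoplasmic reticulum, was at 15.5, 31.1 and 43.8 in KO tumors and 77.3, 109 and 183 in KO livers, against 101, 133 and 139 in WT tumors and 77.5, 55.9 and 62.2 in WT livers. It fell in KO mice (−2.02 ± 0.44) and rose in WT mice (0.92 ± 0.18), with a difference of −2.94 ± 0.52 (adjusted p = 0.0278).

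For the last gene the WT tumors stood apart. Wfdc15b, a small secreted protein of the WAP family, was at 3.78, 21.6 and 4.49 in KO tumors and 0.545, 1.14 and 1.17 in KO livers, against 101, 35.4 and 53.1 in WT tumors and 0.346, 0.387 and 0.475 in WT livers. It rose in both genotypes, with changes of 2.12 ± 0.56 in KO mice and 5.39 ± 0.34 in WT mice. The number of calls for the difference ran from 7 without WT liver 2 to 1368 without KO tumor 3.

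**Figure D5:**
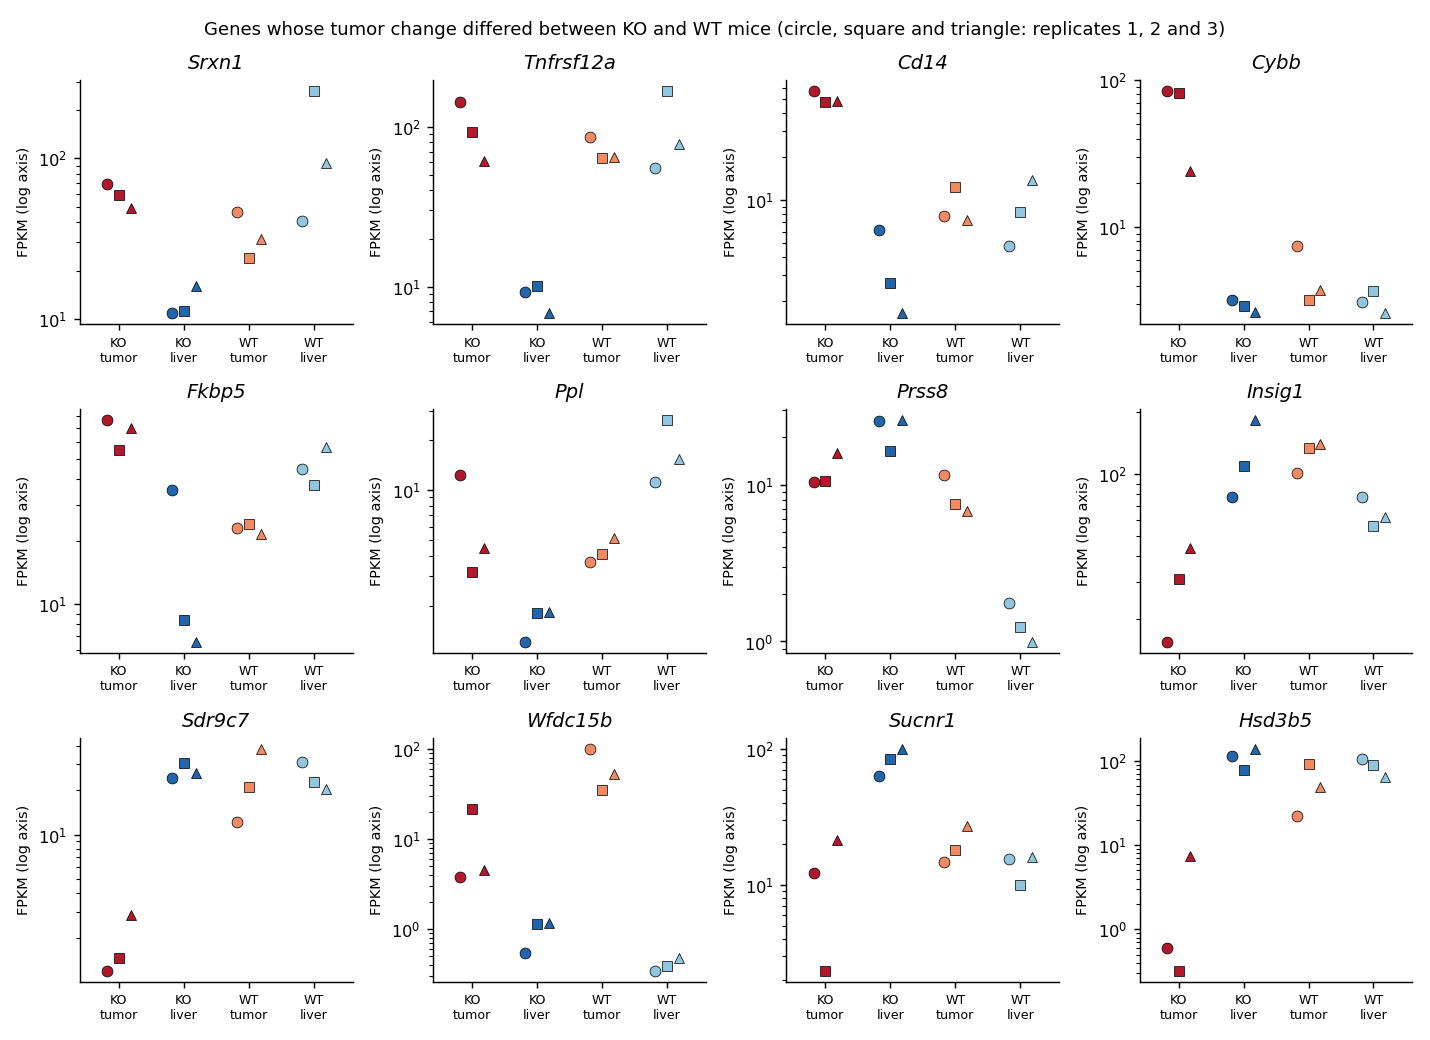
FPKM on a log axis of the 12 genes named for the difference between genotypes, in KO tumors, KO livers, WT tumors and WT livers from left to right, with circles, squares and triangles for replicates 1, 2 and 3. KO livers are the lowest group for Tnfrsf12a, Srxn1 and Ppl, and KO tumors are the lowest for Insig1 and Sdr9c7 and the highest for Cybb.

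Of 25 tested genes that write, read or erase H3K36 methylation, or lie near these functions, 0 were called in either direction by limma and 6 had an unadjusted p below 0.05, with a median of 0.12 and list means of 0.23, 0.17 and 0.03 in KO tumors, and 2 rose without KO tumor 3. The smallest adjusted p was that of Kdm2b, a demethylase gene, at 2.27, 2.15 and 1.90 in KO tumors and 1.38, 1.16 and 0.767 in KO livers (change 0.57 ± 0.17, adjusted p = 0.0666). All 3 tumors were above all livers. Dnmt1, the maintenance DNA methyltransferase, was at 4.39, 4.84 and 2.03 in KO tumors and 1.48, 1.55 and 1.89 in KO livers (adjusted p = 0.0841). Smyd2, a lysine methyltransferase, was at 16.5, 19.8 and 13.7 in KO tumors and 8.80, 9.85 and 12.6 in KO livers (adjusted p = 0.0795).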

How the data were processed

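Poly(A) RNA of 12 mouse liver samples, 3 each from KO tumors, KO livers, WT tumors and WT livers, was sequenced with a non-directional kit, per the labels' protocols, so a gene and its antisense partner cannot be told apart. The authors deposited 1 table of FPKM values per sample. The submitters' processing notes name TopHat2 2.1.1, Cufflinks 2.2.1 and the build mm10. The annotation is not given in the sources used here. Some entries carry several gene names: of 23688 different names 566 were joined ones, and 865 of 24553 entries repeated a name.

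FPKM was tested on the scale log2(FPKM + 1), which understates changes of low genes, with limma 3.58.1 (R 4.3.3), an empirical Bayes fit with a variance trend, 2-sided tests and Benjamini-Hochberg adjustment over all 11671 entries with an FPKM of 1 or more in 3 libraries. Genes were called at an adjusted p below 0.05. KO and WT mice were fitted apart, and their difference as an interaction over 12 libraries. Values did not step in whole reads, the commonest ratio between 2 libraries holding at most 0.55% of low entries, so no count test was run. Tumors and normal livers came from different mice, and replicate numbers were not used as pairs in the main fits.

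Named genes were the 12 called genes with the largest rise and fall, with groups that do not overlap and a mean FPKM of at least 5 in the higher group, the 6 largest differences each way, up to 4 members per list with the smallest adjusted p, a fixed set of liver genes and the defining markers of cell types. A gene that this rule names is not reported here. Members and lists were chosen with earlier results of these data known. A list symbol was matched to its own entry or to an entry shared with microRNA genes alone, a rule set after the tables were seen. Coordinates are those of GENCODE M21 (GRCm38) and promoters those of RefSeq (GRCm38.p6). The fits were tested on simulated data with independent noise of equal spread in tumors and livers. That test does not cover the larger spread of the KO tumors. The alternatives tried were other pseudocounts, filters, scalings, weights, a replicate block, improbable zeros set to missing, single-name entries, removal of a length trend, 1 fit of all libraries and leaving out each library.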

Additional observations from a re-analysis of the deposited data

Results flagged for a closer look

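For 25 of the genes named, the tumor change differed between KO and WT mice by the interaction test over 12 libraries (adjusted p below 0.05). The differences, KO minus WT on the log2(FPKM + 1) scale, were positive for 19 of them. Among genes of receptors, ligands and early responses they were 3.63 for Tnfrsf12a, 3.57 for Cd14, 3.37 for Ier3, 2.69 for Klf6, 1.38 for Areg and 3.26 for Socs3. Among antioxidant and detoxification genes they were 3.72 for Srxn1, 1.83 for Nqo1 and 2.42 for Gsta1. Among interferon and phagocyte genes they were 3.42 for Cybb, 1.59 for Gbp3 and 1.30 for Xaf1, and among matrix genes 2.60 for Col1a1, 1.55 for Col5a2 and 1.73 for Timp3. The remaining positive differences were 3.26 for Fkbp5, 3.11 for Ppl, 2.29 for Krt8 and 1.55 for Prox1. The negative ones were −4.52 for Hsd3b5, −3.52 for Sucnr1, −3.26 for Wfdc15b, −3.15 for Sdr9c7, −2.94 for Insig1 and −2.85 for Prss8. No explanation of these differences was tested.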

How the results depend on the processing

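The number of genes called between KO tumors and KO livers, 1664 with all libraries, was 543 without a filter on low FPKM, 670 with a filter of mean FPKM 5 and 3340 in 1 fit of all 12 libraries, and 129 to 2981 where a library was left out. In WT mice the 1981 calls became 1257 and 1263 under the same filters, 3024 with array quality weights, 1105 in the fit of all 12 libraries and 454 (without WT liver 3) to 2134 (without WT tumor 1) where a library was left out, with 912 without WT liver 2, 1091 without WT tumor 2, 1104 without WT liver 1 and 1274 without WT tumor 3. The 243 calls of the difference became 56 and 133 under the filters, 115 on the common sum, 608 with array quality weights and 7 (without WT liver 2) to 1368 (without KO tumor 3) where a library was left out, with 96, 146, 22, 9 and 370 without KO tumors 1 and 2, KO livers 2 and 3 and WT tumor 1, and 29, 18 and 10 without WT tumors 2 and 3 and WT liver 3. The share of rises among KO calls was 50.6% with the filter of mean FPKM 5 and 52.6% in the fit of all 12 libraries. On the common sum it was 80.3% in WT mice, in place of 47.2%. The cause of these shifts was not tested.

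With the replicate number as a block there were 1420 calls in KO mice, 1235 in WT mice and 114 of the difference. Tumors came from DEN mice and normal livers from mice without DEN, so no tumor and liver library share a mouse. Deviations of same-numbered tumor and liver libraries correlated at 0.09, 0.01 and 0.00 in KO mice and −0.04, −0.06 and −0.02 in WT mice. Differently numbered KO pairs ranged from −0.18 to 0.16. With 3 libraries per group these values cannot tell whether same-numbered libraries shared a batch. Removing the trend with transcript length gave 1596 KO calls, against 1518 over the same genes without it, a comparison chosen after seeing the data. Changes correlated with length at a Spearman's rho of 0.15 across 10075 genes, which are not independent replicates.

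Of the called genes named, 35 of 134 were called in each of the 6 fits that left out a library, and none reversed. Named genes without a call changed sign as follows. Hnf4a was at 0.18 on the common sum and 0.22 with quantile normalization. Krt7 was at 0.15 and Cd79a at 0.054 on the common sum, Krt7 at 0.009 with a pseudocount of 5, and Cd79a at 0.013 with the length trend removed. Epcam was at −0.18 and Pck1 at 0.038 with quantile normalization, and Sqle at −0.025 with median-of-ratios scaling and −0.041 with the length trend removed. Where a library was left out, Egfr ranged over −1.25 to 0.15, Cd79a over −0.47 to 0.18, Epcam over −0.28 to 0.36, Krt7 over −0.46 to 0.21, Krt19 over −0.81 to 0.16, Pck1 over −1.39 to 0.69, Saa1 over −0.53 to 1.64 and Sqle over −0.40 to 0.28. The cause was not tested. Depth is unknown, and 3 libraries per group limit the precision.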
